A study of Mus musculus with 48 samples.

Results

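Lep, Lepr and Socs3 are the genes for leptin, for its receptor and for an inhibitor that leptin signalling induces. They were taken as the rows of the count files whose Ensembl identifiers (ENSMUSG00000059201, ENSMUSG00000057722 and ENSMUSG00000053113) carry these names, 3 of the 56748 identifiers, and were read in all 48 libraries. The libraries came from epididymal white fat (eWAT), brown fat (BAT) and liver of male littermates, either hepAGT-/- (named KO here), in which angiotensinogen (Agt) is deleted in hepatocytes, or hepAGT+/+ (WT), which keep it. Every mouse, controls included, had spent 12 weeks on a Western diet, which held 0.2% cholesterol and 21% of milk fat. Housing was either thermoneutral (TN, 30 °C), a temperature at which a mouse needs little extra heat, or cooler room temperature (RT, between 20 and 22 °C). Each tissue thus has 4 groups of 4 libraries, labelled as biological replicates: WT RT, KO RT, WT TN and KO TN. The promoter or Cre line behind the deletion is not given in the sources used here, and neither is the age of the mice.

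Leptin is a hormone that fat cells release in larger amounts as their fat stores grow, and it lowers food intake through neurons that carry its receptor. The long receptor form passes the signal through the kinase JAK2 to the transcription factor STAT3, which switches on Socs3, and the SOCS3 protein then binds the receptor complex and shuts the signal down. Socs3 answers to the interleukin-6 family of cytokines through the same route, and liver makes mainly short and secreted forms of the receptor.

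A level here is in CPM, the counts of a gene in each megacount of its library, after TMM scaling (trimmed mean of M values) within a tissue. A group is described by its mean ± SD, n = 4. Changes are log2 fold changes from the edgeR quasi-likelihood test, and a gene was called when its Benjamini-Hochberg adjusted p over all genes tested was under 0.05. In whole tissue, fewer cells of a type and less RNA per cell cannot be told apart.

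The stretches before the start sites of Lep and Socs3 are shown because these are the members called between genotypes or temperatures within a tissue. Both come from RefSeq on GRCm38.p6 and are written 5′ to 3′ on the gene's strand, with matches to the searched motifs in capitals. Lep lies on chromosome 6 (GRCm38, chr6:29060220-29073877, plus strand, 2 transcripts) and its 250 bases before the start site are chr6:29059971-29060220. Socs3 lies on chromosome 11 (chr11:117966079-117970047, minus strand, 3 transcripts of which 1 is coding). Its 165 bases are chr11:117969452-117969616, cut short where a non-coding exon begins.
Lep: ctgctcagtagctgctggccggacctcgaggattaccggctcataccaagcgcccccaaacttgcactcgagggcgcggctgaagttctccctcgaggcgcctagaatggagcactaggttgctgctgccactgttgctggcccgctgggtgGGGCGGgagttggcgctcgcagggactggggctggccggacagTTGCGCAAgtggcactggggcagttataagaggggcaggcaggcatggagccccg
Socs3: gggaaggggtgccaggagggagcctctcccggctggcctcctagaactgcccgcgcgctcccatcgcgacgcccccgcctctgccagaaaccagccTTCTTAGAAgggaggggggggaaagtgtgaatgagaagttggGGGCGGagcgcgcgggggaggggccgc
The Lep stretch holds a GC box, GGGCGG, at -98 to -93 and a match to the C/EBP element TTGCNNAA at -55 to -48, counted from the start site. The Socs3 stretch holds a match to the STAT element TTCNNNGAA at -154 to -146 and a GC box at -112 to -107. These positions are counted from the RefSeq start site at chr11:117969366, which lies beyond the end of the stretch shown. The annotated coding transcript starts 180 bases further downstream, at 117969186, and the stretch lies inside the annotated gene span. Searched on both strands in 250 bases before each of 32851 RefSeq start sites, the STAT element was found in 7.02%, the C/EBP element in 9.56%, the GC box in 32.7% and the TATA box TATAAA in 12.4%. The motifs did not overlap in the stretches shown. Lepr (chr4:101717404-101815352, plus strand, 7 transcripts of which 4 are coding) has 2 RefSeq start sites, and the search found a GC box before 1 of them. The counts are per gene, so long and short receptor forms are counted together.

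Agt and the marker genes of each tissue were read first. In liver Agt measured 276, 336, 424 and 434 CPM in WT RT and 143, 150, 174 and 202 CPM in KO RT. At TN it measured 309, 371, 454 and 504 CPM in WT and 125, 164, 172 and 207 CPM in KO. At each temperature all KO values were under all WT values, with log2 changes of -1.14 (SE 0.18, edgeR adjusted p 0.0096) and -1.29 (SE 0.18, edgeR adjusted p 0.00113). In eWAT the KO means of Agt were the higher, at 157 against 92.4 CPM at RT and 170 against 65.9 CPM at TN. Those log2 changes, 0.76 (edgeR adjusted p 0.531) and 1.37 (edgeR adjusted p 0.284), were not called. Library totals ran from 23.7 to 43.7 megacounts. The 8 adipocyte markers summed to 24970 to 43820 CPM by plain library total in eWAT and 11190 to 19130 in BAT, the 6 brown adipocyte markers to 2301 to 10914 in BAT, and the 8 hepatocyte markers to 54075 to 94113 in liver. Some libraries held transcripts typical of other tissues. The 7 epididymis markers summed to 880 CPM in eWAT WT RT replicate 18 against at most 12.4 in the other eWAT libraries. The 6 skeletal muscle markers ran from 1.19 to 6217 CPM in BAT. The 8 hepatocyte markers ran from 26.2 to 4788 CPM in eWAT and from 4.81 to 2563 CPM in BAT. How these transcripts came into the libraries was not tested.

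Lep was lowest in liver and Lepr highest there, while both were higher in eWAT than in BAT. On a scale common to all 48 libraries, Lep averaged 2196 ± 940 CPM (SD, n = 16) in eWAT and 144 ± 104 CPM in BAT, a log2 difference of 4.2 (SE 0.30, edgeR adjusted p 9.14e-14). In liver 14 of 16 libraries had 0 Lep counts, and 1 library each of KO RT and KO TN had 10. Against the floor of 3 counts per library, Lep by plain library total was at least 27458-fold higher in eWAT than in liver of WT RT mice and at least 773-fold higher in BAT. Lepr averaged 17.7 ± 14.1 CPM in liver, 1.40 ± 0.604 in eWAT and 0.527 ± 0.393 in BAT. Each neighbouring pair in that order differed, with eWAT minus liver at -3.57 (SE 0.26, edgeR adjusted p 6.03e-16) and eWAT minus BAT at 1.61 (SE 0.28, edgeR adjusted p 3.39e-06). Socs3 averaged 21.4 ± 13.7 CPM in liver, 8.51 ± 6.85 in BAT and 5.20 ± 1.86 in eWAT. Liver was above both fat depots (BAT minus liver -1.65, SE 0.22, edgeR adjusted p 9.09e-09, and eWAT minus liver -1.97, SE 0.22, edgeR adjusted p 1.02e-10). The depots themselves were not called apart (eWAT minus BAT -0.33, 95% interval -0.76 to 0.11, edgeR adjusted p 0.189). Across all genes tested, 60.3% were called between eWAT and BAT, 73.8% between eWAT and liver and 68.6% between BAT and liver, so a call between tissues was the common outcome.

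Per kilobase of exon (3354 bases for Lep, 7049 for Lepr and 2891 for Socs3), the level of Lep in eWAT was 655 CPM, that of Socs3 1.80 and that of Lepr 0.199. In BAT the same levels were 42.9 for Lep, 2.94 for Socs3 and 0.0748 for Lepr. In liver Socs3 stood at 7.40 ± 4.73 and Lepr at 2.52 ± 2.00 CPM per kilobase (SD, n = 16). By these means the hormone was the most abundant of the 3 transcripts per length in both fat depots, and Socs3 in liver. Liver KO RT replicate 16 went the other way, with 3.66 for Lepr and 2.77 for Socs3 when scaled within liver. The exon length joins all transcripts of a gene, so these values depend on which forms a tissue makes.

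In eWAT at RT, Lep was 2.99-fold lower in KO than in WT mice. The WT RT libraries measured 3113, 3276, 3448 and 4339 CPM. The KO RT libraries measured 1038, 1120, 1223 and 1360 CPM. All 4 KO libraries lay below all 4 WT libraries, and the means were 1185 ± 139 and 3544 ± 548 CPM (SD, n = 4). The log2 change was -1.58 (SE 0.19, edgeR adjusted p 0.00101), called in all 13 alternatives, and without WT RT replicate 18, the library with epididymis transcripts, it was -1.44 (edgeR adjusted p 0.00527). Of all genes tested in this comparison 4.34% were called.

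At TN the gap between the genotypes was narrower in eWAT and was not called. The WT TN libraries measured 3583, 3650, 3957 and 4118 CPM. The KO TN libraries were more spread, at 1365, 2319, 2687 and 3040 CPM, with replicate 5 the lowest. The groups did not overlap, and the means were 3827 ± 253 and 2353 ± 721 CPM. The log2 change was -0.70 (SE 0.19, edgeR adjusted p 0.0847), against 0.586% of all genes called, and DESeq2 called it (-0.71, DESeq2 adjusted p 0.00597). The 6 T cell markers, all detected, summed to 15.5 to 20.5 CPM in WT TN and 6.39 to 8.51 CPM in KO TN, and their part in the result was not tested.

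The same KO RT libraries enter the temperature comparison in KO mice, where Lep rose with TN by 0.99 on the log2 scale (SE 0.19, edgeR adjusted p 0.0212), with 1.74% of all genes called. The lowest KO TN library (1365 CPM) lay only just above the highest KO RT library (1360 CPM). The call was lost without KO RT replicate 19 (0.94, edgeR adjusted p 0.0704), without KO TN replicate 3 (0.84, 0.0929), without KO TN replicate 4 (0.89, 0.0605) and in a fit to the 8 libraries compared (0.96, 0.0816). In WT mice Lep differed between the temperatures by 0.11 (95% interval -0.28 to 0.50, edgeR adjusted p 0.99) and the groups overlapped. No gene was called there (0% of all genes), although 1324 genes had an unadjusted p under 0.05 and DESeq2 called 100. The difference between the genotype effects at the 2 temperatures was 0.88 for Lep (SE 0.26, unadjusted edgeR p 0.00371, edgeR adjusted p 0.553) and was not called. Again no gene was called (0%), with 1439 at an unadjusted p under 0.05 and 12 called by DESeq2. Macrophage markers moved with the temperature comparison in KO mice, as all 6 were detected and their sum ran from 236 to 329 CPM in KO RT and from 458 to 473 CPM in KO TN. Their part in the result was not tested.

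**Figure D1:**
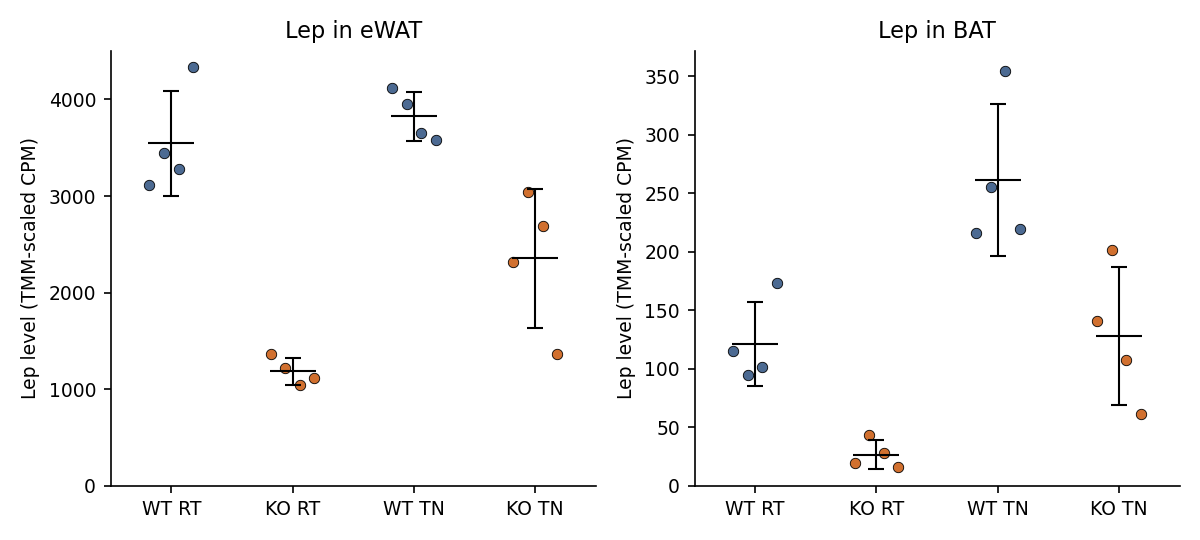
Lep level in each eWAT library (left) and each BAT library (right) as TMM-scaled CPM on linear axes from 0, by genotype and housing, with points for libraries (blue WT, orange KO) and bars for the mean ± SD of 4. In eWAT the KO RT libraries sit between 1038 and 1360 CPM, below every other library, and in BAT the KO RT libraries sit between 15.8 and 43.1 CPM.

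BAT held far less Lep than eWAT, and at each temperature the KO mean was below the WT mean, called at RT only. At RT the WT libraries measured 94.3, 102, 115 and 173 CPM. The KO RT libraries measured 15.8, 19.1, 28.0 and 43.1 CPM. The groups did not overlap, and the log2 change was -2.19 (SE 0.37, edgeR adjusted p 0.0499), at the edge of the threshold and against 0.0887% of all genes called. The call was lost under RLE scaling (edgeR adjusted p 0.0548), without the filter on low counts (0.0566), with the stricter filter (0.055), in a fit to the 8 libraries compared (0.082), and without any 1 of KO RT replicates 9, 10 and 19 and WT RT replicates 15, 17 and 18, where the log2 change lay between -2.29 and -1.97 and the edgeR adjusted p between 0.0877 and 0.188. It was -2.82 (edgeR adjusted p 0.012) when the 6 BAT libraries with the most skeletal muscle transcripts, none of them WT RT, were left out together, an alternative chosen after seeing the data. That fit kept 4 libraries of WT RT and only 2 each of KO RT, WT TN and KO TN. The 6 endothelial markers summed to 163 to 526 CPM in WT RT and 474 to 1010 CPM in KO RT, and their part in the result was not tested.

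At TN the WT libraries measured 216, 219, 255 and 355 CPM of Lep. The KO TN libraries measured 61.4, 108, 140 and 202 CPM. They did not overlap, and the log2 change was -1.03 (95% interval -1.79 to -0.28, edgeR adjusted p 0.778). It was not called, and neither was any other gene (0%), with 945 genes at an unadjusted p under 0.05 and 20 called by DESeq2.

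Lep rose with TN in the BAT of both genotypes. In WT mice it rose by 1.11 on the log2 scale (SE 0.36, edgeR adjusted p 0.026) and the groups did not overlap. That call was lost without the filter on low counts (1.13, edgeR adjusted p 0.062) and without WT RT replicate 12 (1.09, 0.0572), 15 (1.01, 0.0757) or 17 (1.03, 0.0758) or WT TN replicate 6 (1.14, 0.0512) or 7 (0.94, 0.0848). In KO mice it rose by 2.27 (SE 0.37, edgeR adjusted p 0.000831), called in all 14 alternatives. The background is high here, since 32.5% of all genes were called between the temperatures in WT BAT and 15.2% in KO BAT. The median log2 change over all genes was 0.11 in WT BAT, so the rise of Lep relative to the median gene was smaller by that amount. The genotype effects at the 2 temperatures differed by 1.16 (SE 0.50, edgeR adjusted p 0.475), which was not called. No gene was called for that difference in BAT (0%), with 1832 at an unadjusted p under 0.05 and 21 called by DESeq2.

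A lower Lep level in KO was thus seen in both depots, and whether its size differed between them was tested directly. The genotype effect in eWAT minus that in BAT was 0.62 at RT (95% interval -0.91 to 2.15, edgeR adjusted p 0.768) and 0.33 at TN (95% interval -1.19 to 1.86, edgeR adjusted p 1.0). Neither was called, and the intervals leave room for differences in both directions. For this test 2.79% of all genes were called at RT and 0% at TN, where 1505 had an unadjusted p under 0.05 and DESeq2 called 29.

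Lep was also set against other transcripts of fat cells. The log2 of Lep counts minus the mean log2 of 8 adipocyte genes (Adipoq, Plin1, Cidec, Lipe, Pnpla2, Fabp4, Cfd and Retn) was formed in each library, which needs no library scaling. In eWAT at RT this ratio ran from 0.12 to 0.90 in WT and from -1.66 to -1.24 in KO, a difference of -1.91 with no overlap (exact two-sided permutation test, p 0.0286, adjusted p 0.0571). At TN in eWAT it ran from 0.52 to 0.85 in WT and from -1.49 to 0.26 in KO, with means of 0.64 and -0.36 and no overlap (exact permutation p 0.0286, adjusted p 0.0571). In BAT the KO minus WT difference was -2.01 at RT (exact permutation p 0.0286, adjusted p 0.0571) and -1.41 at TN (exact permutation p 0.0571, adjusted p 0.0762).

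For the temperature comparisons the ratio moved by 1.26 in WT BAT (exact permutation p 0.0286, adjusted p 0.0571), 1.87 in KO BAT (p 0.0857, adjusted p 0.098), 1.17 in KO eWAT (p 0.0571, adjusted p 0.0762) and 0.26 in WT eWAT (p 0.257, adjusted p 0.257). Libraries of 4 against 4 cannot give a p below 0.0286. That value was reached by 4 of the 8 comparisons, and none passed after adjustment. With 4 comparisons at this lowest p, adjustment over 8 gives 0.0571, so none of them could pass. Among the 8 adipocyte genes themselves, 1 was called in eWAT for genotype at RT, Cfd, which was higher in KO, and their median log2 change was 0.17. In WT BAT 2 of the 8 were lower at TN, and in KO BAT 1 was higher.

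**Figure D2:**
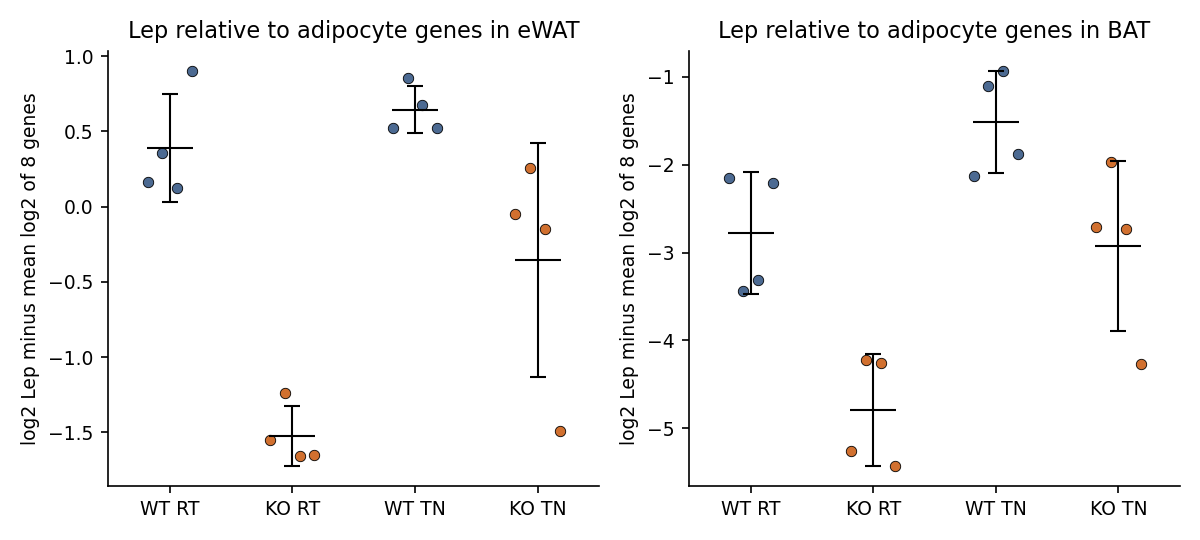
Log2 of Lep counts minus the mean log2 counts of 8 adipocyte genes in each library of eWAT (left) and BAT (right), by genotype and housing, with bars for the mean ± SD of 4 libraries. In eWAT the KO RT libraries lie from -1.66 to -1.24 and the WT RT libraries from 0.12 to 0.90, and in KO TN replicate 5 stands at -1.49 near the KO RT libraries.

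Lepr, the receptor, was scarce in both fat depots, and no comparison within a tissue was called for it. In eWAT the WT RT libraries measured 0.881, 1.02, 1.03 and 1.69 CPM. The KO RT libraries measured 1.84, 2.05, 2.66 and 3.52 CPM. These groups did not overlap, yet the log2 change of 1.12 (95% interval 0.27 to 1.97, edgeR adjusted p 0.129) did not pass, and the libraries held 30 to 126 Lepr counts. At TN the receptor measured 1.11, 1.78, 1.81 and 2.52 CPM in WT and 0.727, 1.29, 1.51 and 2.47 CPM in KO. The groups overlapped and the log2 change was -0.27 (95% interval -1.11 to 0.57, edgeR adjusted p 0.83). The temperature changes were 0.64 in WT (edgeR adjusted p 0.854) and -0.75 in KO (edgeR adjusted p 0.355). The order of the group means was KO RT, WT TN, KO TN and WT RT, and the neighbours in that order overlapped. The 8 hepatocyte markers summed to 39.9 to 1612 CPM in WT RT and 115 to 4788 in KO RT. They summed to 26.2 to 1488 CPM in WT TN and 52.7 to 489 in KO TN. In KO RT, WT TN and KO TN the library with the most of them also had the most Lepr, while in WT RT it had the least. Their part in the Lepr levels was not tested.

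In BAT 1 library had no Lepr count and the highest had 46. The WT RT libraries measured 0, 0.0521, 0.203 and 0.402 CPM and the KO RT libraries 0.068, 0.147, 0.199 and 0.783 CPM. The WT TN libraries measured 0.499, 0.54, 0.54 and 0.672 CPM and the KO TN libraries 0.717, 0.755, 1.12 and 1.18 CPM. Within each genotype the mean was higher at TN, and the WT groups did not overlap, as was also true of WT and KO at TN. The log2 changes with TN were 1.71 in WT (95% interval -0.12 to 3.54, edgeR adjusted p 0.143) and 1.64 in KO (95% interval -0.14 to 3.42, edgeR adjusted p 0.222). For genotype they were 0.81 at RT (edgeR adjusted p 0.648) and 0.74 at TN (edgeR adjusted p 0.999). The intervals of these changes were wide. Lepr was higher in liver, and the 8 hepatocyte markers summed to 13.5 to 303 CPM in WT RT and 4.81 to 683 in KO RT. They summed to 88.7 to 891 CPM in WT TN and 22.3 to 2563 in KO TN. In WT RT, WT TN and KO TN the library with the most of them also had the most Lepr, while in KO RT it had the least. The part of liver transcripts in these levels was not tested.

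Liver carried the most Lepr, with a wide spread inside every group. The WT RT libraries measured 5.12, 5.84, 8.41 and 11.9 CPM and the KO RT libraries 8.09, 11.1, 19.5 and 25.8 CPM. The WT TN libraries measured 6.69, 9.06, 9.58 and 19.4 CPM and the KO TN libraries 9.72, 15.5, 24.6 and 53.7 CPM. The KO mean was above the WT mean at both temperatures, and the groups overlapped in each case. The log2 changes were 1.05 at RT (95% interval -0.13 to 2.22, edgeR adjusted p 0.555) and 1.21 at TN (95% interval 0.04 to 2.37, edgeR adjusted p 0.264). Of all genes in liver 0.0853% were called for genotype at RT and 3.18% at TN. With TN the receptor changed by 0.52 in WT (edgeR adjusted p 0.911) and by 0.68 in KO (edgeR adjusted p 0.739), neither called, with 0.0227% and 0.114% of all genes called.

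Socs3, the inhibitor, rose with TN in the BAT of both genotypes. The WT RT libraries measured 1.84, 2.28, 2.71 and 4.90 CPM and the WT TN libraries 7.47, 10.3, 14.1 and 16.8 CPM. The KO RT libraries measured 1.60, 2.57, 2.59 and 3.33 CPM and the KO TN libraries 6.51, 12.0, 17.5 and 20.1 CPM. Every TN library lay above every RT library. The log2 changes were 2.06 in WT (SE 0.37, edgeR adjusted p 0.000501) and 2.47 in KO (SE 0.38, edgeR adjusted p 0.000303), each called in all 14 alternatives. Without the 6 libraries richest in skeletal muscle transcripts they were 2.42 (edgeR adjusted p 0.00148) and 2.32 (edgeR adjusted p 0.0305). Only WT RT kept 4 libraries there, and each of the other groups kept 2. Read against the 32.5% and 15.2% of genes called in these comparisons, a call alone was not rare.

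Other marker lists moved with the same BAT comparison. The sum of the 6 macrophage markers ran from 19.7 to 51.9 CPM in WT RT and from 86.5 to 179 CPM in WT TN. In KO it ran from 22.2 to 29.1 CPM at RT and from 67.6 to 89.5 CPM at TN. The 6 brown adipocyte markers were lower at TN, with 6771 to 10914 CPM in WT RT, 2907 to 6342 in WT TN, 6475 to 10457 in KO RT and 2301 to 5092 in KO TN. The 6 T cell markers summed to 0.395 to 2.13 CPM in WT RT, 2.16 to 7.32 in WT TN, 0.653 to 2.57 in KO RT and 2.73 to 12.2 in KO TN. In WT the 6 neutrophil markers (1.44 to 2.32 at RT, 3.32 to 7.80 at TN) and the 6 B cell markers (0.474 to 1.29 and 1.63 to 4.24) did not overlap between the temperatures either, and in KO both lists did. No marker of the macrophage, brown adipocyte, T cell or B cell lists was at 0 throughout a BAT group, while 2 of the 6 neutrophil markers were at 0 throughout WT RT, 1 throughout KO RT and 2 throughout KO TN. The part of these cell types in the rise of Lep and Socs3 was not tested.

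Genotype left Socs3 in BAT within the spread of its groups. The log2 changes were -0.21 at RT (95% interval -0.98 to 0.56, edgeR adjusted p 0.796) and 0.21 at TN (95% interval -0.54 to 0.95, edgeR adjusted p 0.999). In eWAT the libraries measured 3.66, 4.39, 5.84 and 6.04 CPM in WT RT, 3.88, 4.30, 6.18 and 7.91 in KO RT, 6.03, 7.75, 8.99 and 12.4 in WT TN, and 4.29, 5.66, 7.64 and 8.44 in KO TN. WT TN had the highest mean, but it overlapped WT RT narrowly and the other groups widely. Its log2 change with TN was 0.82 (95% interval 0.21 to 1.42, edgeR adjusted p 0.504), and no Socs3 comparison in eWAT was called. Macrophage markers (321 to 431 CPM in WT RT and 448 to 673 in WT TN) and T cell markers (7.64 to 10.5 and 15.5 to 20.5) moved with that comparison, and their part in it was not tested.

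Liver Socs3 varied several fold within each group and no comparison was called. The WT RT libraries measured 9.37, 20.1, 26.3 and 28.1 CPM and the KO RT libraries 8.01, 9.58, 18.2 and 22.0 CPM. The WT TN libraries measured 3.98, 9.67, 10.3 and 16.2 CPM and the KO TN libraries 12.0, 14.3, 42.0 and 44.7 CPM. Replicates 4 and 22 of KO TN stood apart from the other libraries. The KO minus WT change was -0.54 at RT (edgeR adjusted p 0.815) and 1.49 at TN (95% interval 0.29 to 2.70, edgeR adjusted p 0.176). The difference between these effects was 2.03 (SE 0.78, unadjusted edgeR p 0.0219, edgeR adjusted p 0.607). No gene in liver was called for that difference (0%), with 1290 at an unadjusted p under 0.05 and 17 called by DESeq2.

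**Figure D3:**
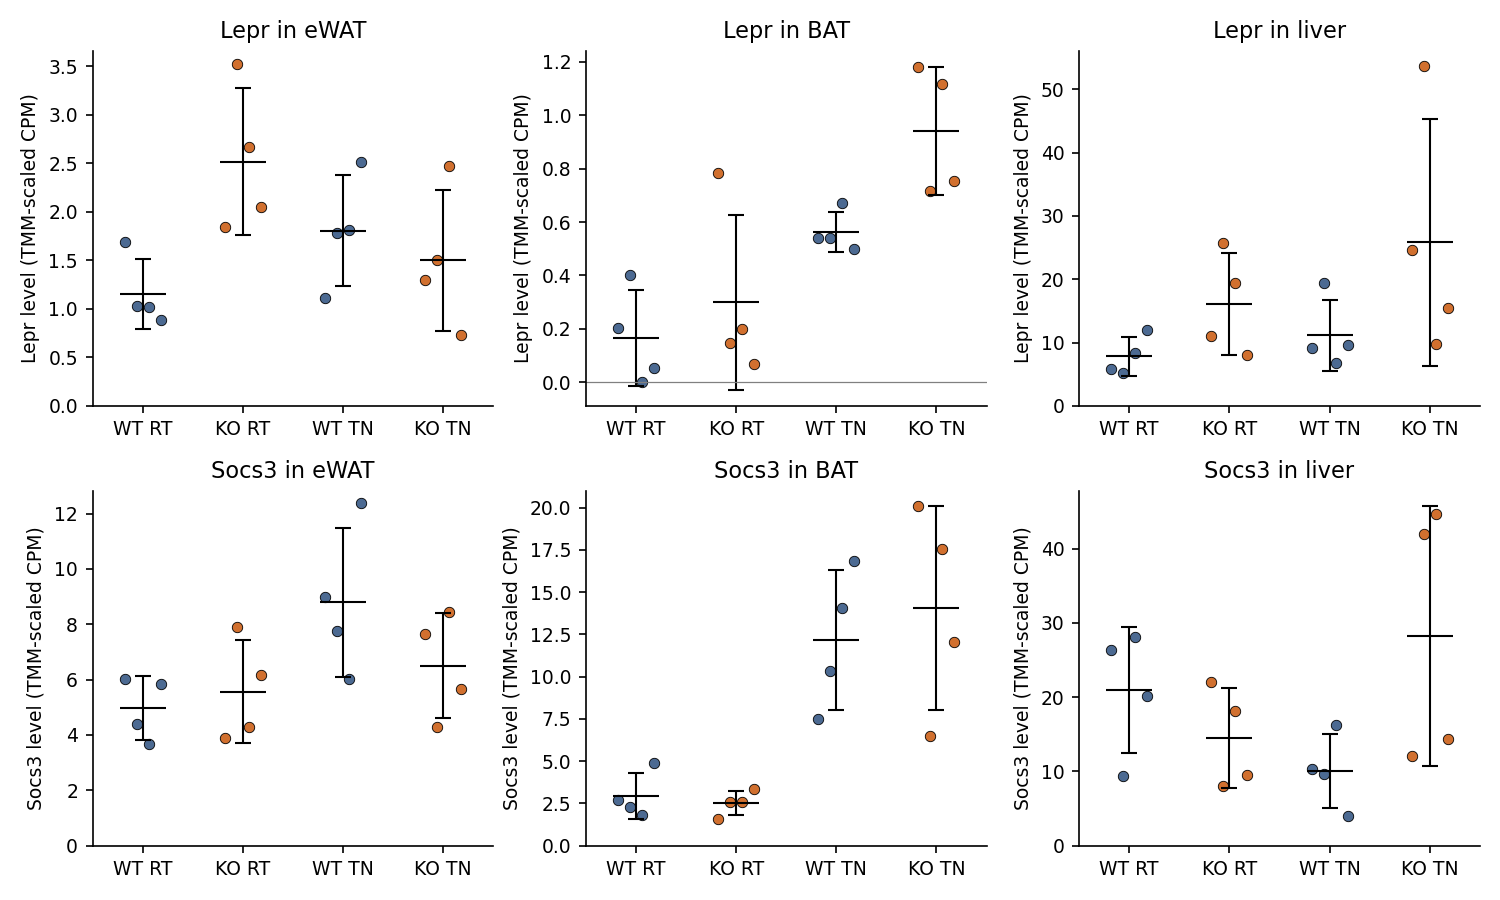
Levels of Lepr (top) and Socs3 (bottom) in each library of eWAT, BAT and liver as TMM-scaled CPM, by genotype and housing, with bars for the mean ± SD of 4 libraries and a separate linear axis in each panel. The clearest separation is Socs3 in BAT, where TN libraries run from 6.51 to 20.1 CPM and RT libraries from 1.60 to 4.90 CPM.

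**Figure D4:**
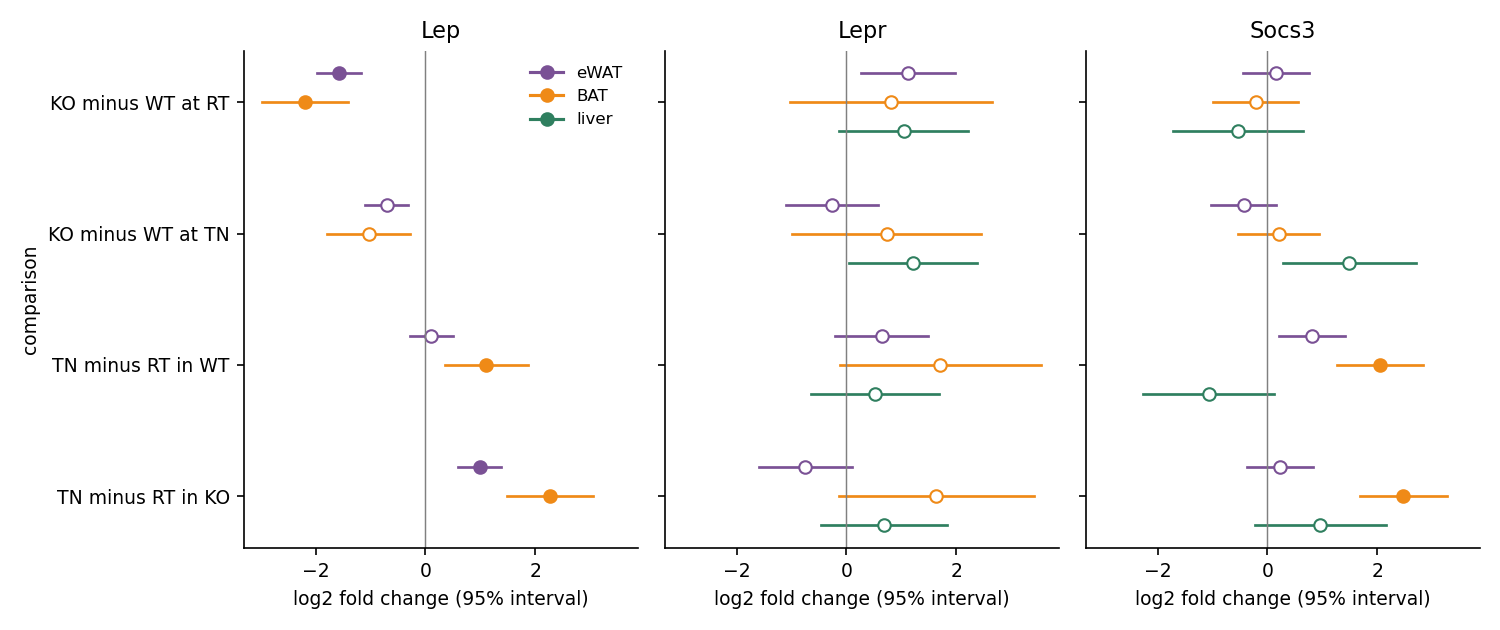
Log2 fold changes of the 3 genes with 95% intervals in 4 comparisons per tissue, filled where the edgeR adjusted p was under 0.05. Lep has filled points on the negative side for genotype at RT and on the positive side for temperature in BAT and in KO eWAT, Socs3 has filled points for temperature in BAT only, where the changes were 2.06 and 2.47, and Lepr has none. Lep in liver was below the filter on low counts and is not drawn.

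Genes around the leptin route were grouped in 6 lists with 62 genes, of which 60 were tested in each fat depot and 57 in liver. In eWAT at RT 10 of 60 were called between the genotypes, 2 higher and 8 lower in KO, which is 16.7% of them against 4.34% of all genes. The count fell to 6 without KO RT replicate 9, KO RT replicate 10 or WT RT replicate 13, and to 5 without KO RT replicate 19 or WT RT replicate 18. The largest share was in genes known to rise with fat cell growth, where 5 of 6 fell in KO and the list median was -1.37 against -0.00207 for all genes. The lists were chosen with earlier results of these data known, so these shares are not independent support. Sfrp5, a secreted Wnt antagonist, fell from 311 ± 145 to 38.4 ± 22.2 CPM (log2 change -3.02, edgeR adjusted p 0.0103, called in 12 of 13 alternatives). Mest, an imprinted gene of expanding fat, fell from 1105 ± 335 to 202 ± 33.2 CPM (-2.45, edgeR adjusted p 0.00153). Trp53inp2 fell from 1653 ± 200 to 617 ± 56.1 CPM (-1.42, edgeR adjusted p 0.00101), and Bmp3 and Npr3 fell as well (called in 5 and 6 of 13 alternatives). For these 5 genes, as for Lep, the KO RT libraries did not overlap the WT RT libraries. Since these genes were already called in the same libraries, the lack of overlap is no further support.

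In the other lists 0 to 2 genes each were called with genotype in eWAT at RT, where 4.34% of all genes were called. Among 14 signal transduction genes Irs1, an adaptor shared with the insulin receptor, rose from 36.8 ± 3.70 to 68.9 ± 8.22 CPM (log2 change 0.90, edgeR adjusted p 0.00223), so that 7.14% of the list was called, and the list median was -0.02. None of the 7 inhibitors was called (median -0.06). Of 8 interleukin-6 family genes tested, Osmr, a receptor for oncostatin M, fell by 0.66 (edgeR adjusted p 0.0187, called in 10 of 13 alternatives), which is 12.5% of the list (median -0.23). Of 14 STAT3 targets 2 fell (14.3%, median -0.46), Hp and Lrg1, secreted acute phase proteins, by 1.54 (edgeR adjusted p 0.0268) and 1.23 (edgeR adjusted p 0.0431), each called in 5 of 13 alternatives. Of 11 regulators of the Lep gene, Nr3c1, the glucocorticoid receptor, rose by 0.56 (edgeR adjusted p 0.00358), which is 9.09% of the list (median -0.03).

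At TN 2 of the 60 genes (3.33%, beside 0.586% of all genes) were called between the genotypes in eWAT, a count that ran from 0 to 4 with 1 library left out. It was 4 without WT TN replicate 8, 2 without KO TN replicate 4 and 0 without any other. Cebpb, a C/EBP factor, fell from 43.6 ± 3.19 to 27.5 ± 4.10 CPM (log2 change -0.67, edgeR adjusted p 0.0422, called in 4 of 13 alternatives), and Nr3c1 rose by 0.42 (edgeR adjusted p 0.0465, called in 5 of 13). With TN in KO eWAT 2 of 60 were again called (3.33%, beside 1.74% of all genes). That count was 0 without KO RT replicate 9 or 10 or KO TN replicate 3 or 4, 1 without KO RT replicate 19, 3 without KO TN replicate 21, 5 without KO RT replicate 16 and 7 without KO TN replicate 5. Mest rose by 1.40 (edgeR adjusted p 0.0313, called in 6 of 13 alternatives) and Cebpb fell by 0.63 (edgeR adjusted p 0.0337, called in 8 of 13). The same KO RT and KO TN libraries enter these comparisons. No listed gene was called with TN in WT eWAT.

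In BAT none of the 60 listed genes was called for genotype by edgeR, beside 0.0887% of all genes at RT and 0% at TN. Without WT RT replicate 12 the count at RT was 4, and DESeq2 called 6 at RT and 2 at TN. With TN 28 of 60 were called in WT (21 higher, 7 lower) and 16 of 60 in KO (11 higher, 5 lower). That is 46.7% and 26.7% of the listed genes, beside 32.5% and 15.2% of all genes. With 1 library left out the counts ran from 21 to 35 in WT and from 11 to 16 in KO. Without the 6 libraries richest in skeletal muscle transcripts the KO count fell to 5, while all genes called there fell from 2735 to 867. The expansion genes rose in WT BAT apart from Trp53inp2, which fell, and Cav1, which was not called. Mest went from 4.27 ± 2.61 to 45.5 ± 16.9 CPM in WT (log2 change 3.42, edgeR adjusted p 0.00161) and from 1.31 ± 0.839 to 13.2 ± 10.3 CPM in KO (3.34, edgeR adjusted p 0.00493). Bmp3 rose by 2.11 in WT (edgeR adjusted p 0.0129) and 2.28 in KO (edgeR adjusted p 0.0187), and Sfrp5 rose by 1.59 in WT (edgeR adjusted p 0.0259).

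Of 14 STAT3 targets, 7 were called with TN in each genotype. This is 50% of the list, beside 32.5% of all genes in WT and 15.2% in KO. Immediate early genes led the rises. Fos went from 55.6 ± 31.7 to 258 ± 105 CPM in WT (log2 change 2.22, edgeR adjusted p 0.0223) and from 34.7 ± 26.9 to 276 ± 110 CPM in KO (2.99, edgeR adjusted p 0.0106). Myc rose by 2.78 in WT (edgeR adjusted p 0.000166) and 2.46 in KO (edgeR adjusted p 0.00102), and Junb by 1.97 (edgeR adjusted p 0.00331) and 2.15 (edgeR adjusted p 0.00445). Lrg1 and Timp1 rose in both genotypes and Cebpd in WT. Pim1, a kinase gene, fell by 1.78 in WT (edgeR adjusted p 1.93e-05) and 1.24 in KO (edgeR adjusted p 0.000757), and Bcl3 fell in KO. The list median was 1.42 in WT and 1.27 in KO.

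Of the 7 inhibitors other than Socs3, 4 rose with TN in WT BAT, namely Socs1, Socs2, Ptpre and Pias3 (list median 0.95). This is 57.1% of the list, beside 32.5% of all genes. Ptpre, a phosphatase, rose by 1.28 (edgeR adjusted p 0.0262), Socs2 by 1.02 (edgeR adjusted p 0.0431) and Pias3, which binds STAT3, by 0.95 (edgeR adjusted p 0.00104). In KO BAT none of the 7 was called (median 0.38), beside 15.2% of all genes. No listed gene was called for the difference between the genotypes in the temperature effect, where 0% of all genes were. Of 8 interleukin-6 family genes 4 rose in WT (50%), Il6ra, Il6st, Lifr and Osmr, all receptor chains, with Osmr at 1.40 (edgeR adjusted p 0.00247). In KO, Il6ra and Lifr rose (25%).

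The shares called among signal transduction genes (28.6%) and regulators of Lep (36.4%) in WT BAT lay near the 32.5% of all genes. Irs2 rose by 1.93 with TN (edgeR adjusted p 0.002), Jak2, the kinase bound to the receptor, by 0.75 (edgeR adjusted p 0.00351) and Stat3 by 0.50 (edgeR adjusted p 0.00714), while Stat5a fell by 0.66 (edgeR adjusted p 0.00453). None of the 14 was called in KO, where 15.2% of all genes were. Of the regulators of Lep, 4 fell in WT BAT, Cebpb (by 0.74, edgeR adjusted p 0.0208), Nfyc (by 0.63, edgeR adjusted p 0.000725), Srebf1 and Pparg. In KO BAT Nfyc and Hif1a fell and Cebpa rose (0.60, edgeR adjusted p 0.0216).

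In liver 4 of 57 listed genes were called, all between the genotypes at TN, which is 7.02% beside 3.18% of all genes. Saa3, an acute phase gene, rose in KO from 6.02 ± 1.63 to 23.2 ± 13.4 CPM (log2 change 1.94, edgeR adjusted p 0.0334, called in 6 of 13 alternatives). Pparg fell by 1.24 (edgeR adjusted p 0.0476, called in 4 of 13), Pik3r1 by 0.54 (edgeR adjusted p 0.0489, called in 5 of 13) and Ptpn11 by 0.47 (edgeR adjusted p 0.0334, called in 5 of 13). With 1 library left out the count of 4 ran from 0 to 3, and it stayed above 2 only without WT TN replicate 24. It was 2 without KO TN replicate 5 or 22, 1 without KO TN replicate 2 or WT TN replicate 1, and 0 without KO TN replicate 4 or WT TN replicate 6 or 7. The neutrophil, B cell and T cell markers differed between the same groups without overlap. The macrophage markers overlapped, at 86.4 to 131 CPM in WT TN and 115 to 256 CPM in KO TN. The 6 neutrophil markers summed to 3.14 to 5.38 CPM in WT TN and 6.86 to 13.3 in KO TN, with 1 of them at 0 throughout each group. The B cell markers summed to 3.30 to 5.81 and 6.23 to 10.5 CPM, and the T cell markers to 2.81 to 4.33 and 4.34 to 28.7 CPM. Their part in the result was not tested.

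**Figure D5:**
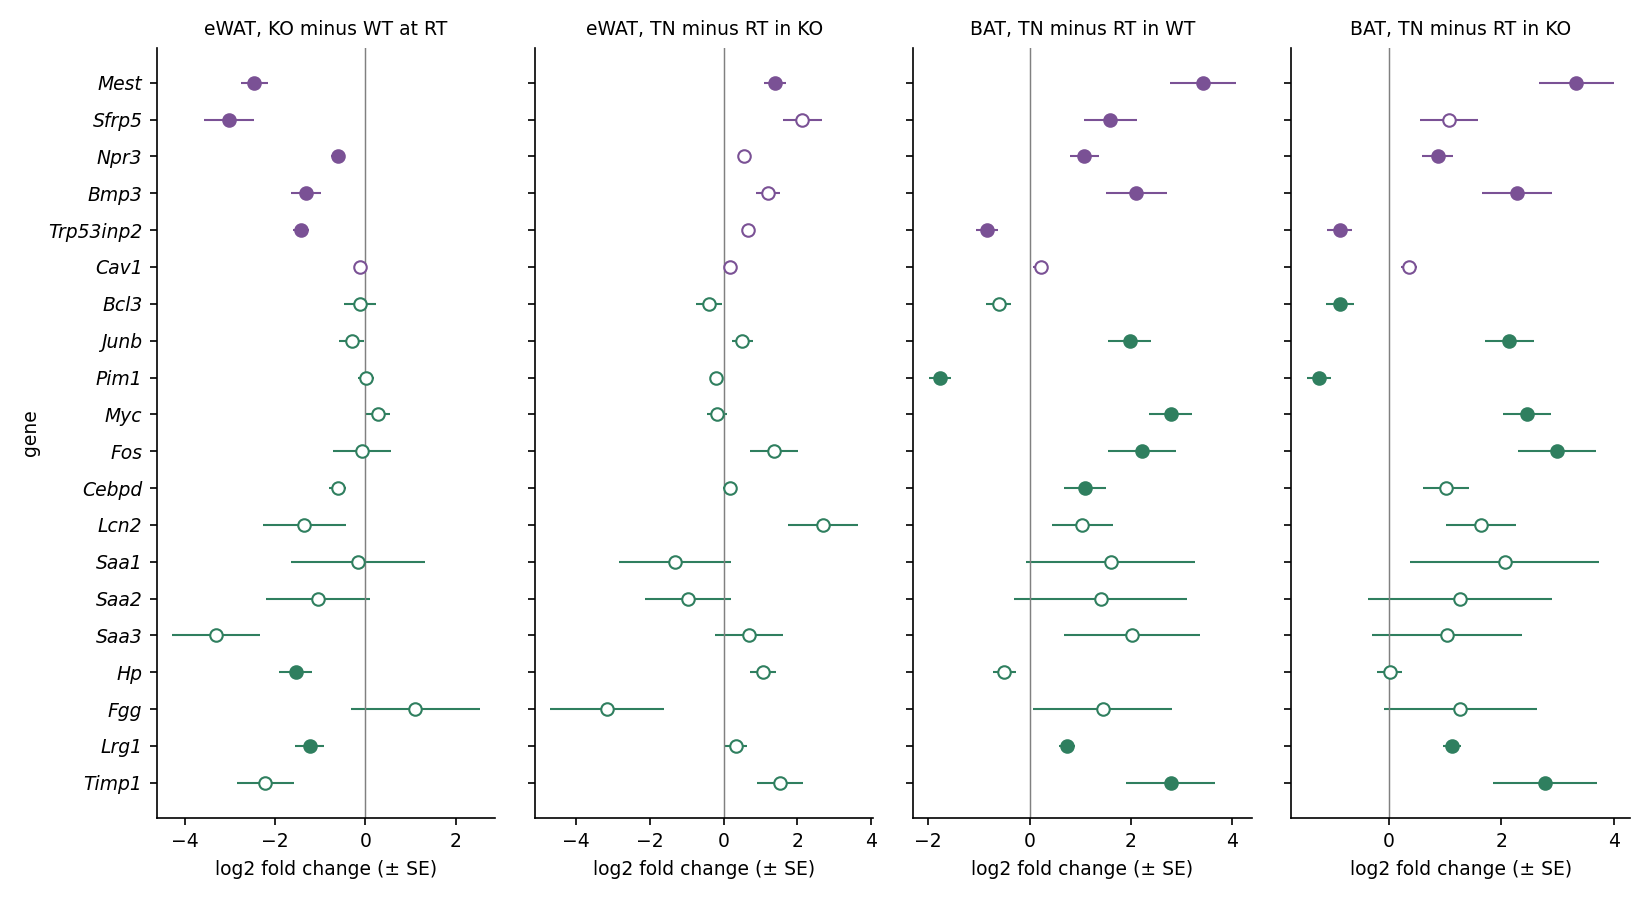
Log2 fold changes ± SE of 6 expansion genes of fat cells (purple) and 14 STAT3 targets (green) in 4 comparisons, filled where the edgeR adjusted p was under 0.05. In eWAT 5 purple points are filled on the negative side for KO at RT, and in BAT Myc, Fos, Junb and Mest are filled on the positive side with TN in both genotypes, while Pim1 is filled on the negative side.

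By Pearson correlation of log2 levels over the 12 group means, which share the large tissue differences, the genes most like Lep were Mfap5 (r 0.996), Sept7, Glb1l2, Triqk and Rhoc. Those most like Lepr were Trpm2 (r 0.99), Olfr1034, Treml4, Hamp2 and Chsy3, and those most like Socs3 were Cxcl10 (r 0.955), Myc, Isg15, Map2k6 and Ptma. Within the 16 eWAT libraries Lep was closest to Jpt2 (r 0.97), Lbp, Sparc, Mrc2 and Slc5a7. Within the 16 BAT libraries it was closest to Mr1 (r 0.933), Mturn, Sucnr1, Trim16 and Hspa12a. These are descriptions over points that share group and library, and they carry no test.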

How the data were processed

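Bulk RNA-seq of eWAT, BAT and liver was analysed in 48 libraries (12 groups of 4) whose totals ran from 28.7 to 43.7 megacounts in eWAT, 25.3 to 39.4 for BAT and 23.7 to 36.5 for liver. The values deposited by the authors are raw counts of reads per Ensembl gene. The submitters' processing notes list fastp, STAR 2.6.1d, featureCounts 1.5.0-p3, GRCm38 and mm10. The annotation release and strand setting are not given in the sources used here. Names were matched for 52073 of 56748 identifiers, and at least 94.8% of each library's counts lay in named genes. The labels call the samples biological replicates.

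Counts were tested with edgeR 4.0.16 (robust quasi-likelihood, genes kept by filterByExpr at its minimum count of 10, scaled by TMM) in R 4.3.3, in 1 fit per tissue over 16 libraries and 1 fit over 48 for tissue contrasts, with Benjamini-Hochberg adjustment over all genes. The Lep ratio added 0.5 to each count. Alternatives were RLE scaling, no filter, at least 1 CPM in 4 libraries, DESeq2 1.42.0, leaving out each library in turn, a fit to the compared libraries alone, and the animal number as a block. The procedure was tested on simulated data. The members and lists were chosen with earlier results of these data known. Up to 3 called genes per list, those with the largest change and a mean of at least 1 CPM, are given with values, and other called genes may be named. Likeness was computed on log2 (CPM + 1).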

Additional observations from a re-analysis of the deposited data

Results flagged for a closer look

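Lep counts appeared in 2 of the 16 livers, and each of these libraries stood apart from the other 3 of its group, which had 0 counts. Liver KO RT replicate 19 had 10 counts (0.385 CPM) and liver KO TN replicate 2 had 10 counts (0.331 CPM). The first of them also held 78 counts of the adipocyte gene Adipoq, which was at 0 in the other 15 livers, the second included. In all 34 groups of values were examined in this way, and chance flags about 1 in 20 groups of evenly measured values. That rate does not apply to these 2 flags, since with 3 libraries at 0 any count in the remaining library is flagged.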

How the results depend on the processing

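Calls of Lep depended on the setting in 4 comparisons. In eWAT, KO minus WT at TN was called by DESeq2 (-0.71), and TN minus RT in KO was lost with only the 8 libraries compared (0.96) and ranged from 0.84 to 1.17 when 1 library was left out. In BAT, KO minus WT at RT was lost under RLE scaling (-2.19), without the filter (-2.19), with the CPM filter (-2.19) and with only 8 libraries (-2.14), ranging from -2.53 to -1.97 with 1 library left out. TN minus RT in WT was lost without the filter (1.13) and ranged from 0.94 to 1.33. The cause was not tested.

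Uncalled changes that turned sign with 1 library left out were those of Lepr in BAT (KO minus WT at RT, -0.29 to 1.71, and the difference between genotype effects, -0.97 to 1.03), in liver (the same difference, -0.48 to 0.56) and between depots at RT (-0.53 to 1.47), and those of Socs3 for KO minus WT in eWAT at RT (-0.0357 to 0.33) and in BAT at RT (-0.38 to 0.14) and TN (-0.0166 to 0.45). Without the BAT libraries rich in skeletal muscle transcripts, Socs3 gave -0.36 for KO minus WT at TN and -0.0985 for the difference between genotype effects. This left 2 libraries each in KO RT, WT TN and KO TN.

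For the Lep ratio (unadjusted p), TN minus RT in WT BAT missed the threshold with Adipoq alone (1.08), and the marker median brought KO minus WT at TN (-1.37) and TN minus RT in KO (2.03) of BAT past it. With 1 library left out, eWAT ranged from 0.17 to 0.43 for TN minus RT in WT, -1.21 to -0.62 for KO minus WT at TN and 0.96 to 1.55 for TN minus RT in KO, and BAT from 1.04 to 1.47, -1.73 to -0.96 and 1.55 to 2.32 for TN minus RT in WT, KO minus WT at TN and TN minus RT in KO.

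Whether libraries of different tissues with the same number come from the same animal is not stated in the sources used here. Of 35 same-number pairs, 1 had a correlation over 0.1, but a low correlation between tissues cannot show that the animals differ. The main fit over 48 libraries treated them as independent. With the replicate block, eWAT minus BAT was 4.37 for Lep, 1.56 for Lepr and -0.42 for Socs3, and no member's call changed, while genes called for the depot difference at RT went from 612 to 59.

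The number of genes called moved by over 1.5 times in several comparisons. DESeq2 called 1509 against 821 in eWAT for KO minus WT at RT, 675 against 111 at TN and 1154 against 330 for TN minus RT in KO, where only 8 libraries gave 0 for the last 2. In BAT for KO minus WT at RT 16 became 0 under RLE scaling, the CPM filter and only 8 libraries, 47 without the filter, 981 with DESeq2 and 344 without the muscle-rich libraries, which also took TN minus RT in KO from 2735 to 867 and the listed genes there from 16 to 5. In liver DESeq2 called 203 against 15 and 1111 against 560 for KO minus WT at RT and TN, and 75 against 4 and 362 against 20 for TN minus RT in WT and KO. Without the filter the counts were 25, 10 and 77 for KO minus WT at RT and TN minus RT in WT and KO, the CPM filter gave 9 for the first, and only 8 libraries gave 8 and 13 for the last 2. For the depot difference at RT, DESeq2 called 1263 and no filter gave 358. With 1 library left out, the counts ran in eWAT from 287 to 830 for KO minus WT at RT, 1 to 238 at TN and 0 to 642 for TN minus RT in KO, in BAT from 0 to 1979 for KO minus WT at RT, in liver from 4 to 19 for KO minus WT at RT, 178 to 497 at TN, 2 to 23 for TN minus RT in WT and 0 to 153 in KO, and from 194 to 1742 for the depot difference at RT. Counts were lowest for Lep in liver, at 0 to 10 a library, and next lowest for Lepr in BAT, at 0 to 46.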
